A study of Homo sapiens with 6 samples.

Results

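The response of SW620 cells to TEAD4 knockdown was read from 3 of the 6 libraries of the series, 1 control and 2 knockdown libraries, and from 14211 of the 26336 named genes in their table. SW620 is an established human colorectal cancer line that came from a lymph node metastasis. The control carried pLKO, a lentiviral vector for short hairpin RNA, and the knockdown libraries carried hairpin RNA against TEAD4 (shTEAD4). All 3 were grown in DMEM with serum and had no other treatment, and RNA was sequenced from whole cultures. Genes were kept where the 3 libraries averaged at least 10 normalized counts, a normalized count being the reads of a gene divided by a size factor of the library. Genes on the same side of the control in both knockdown libraries are described, with the spread taken from the SW620 libraries alone.

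TEAD4 is a transcription factor with a TEA domain, which binds DNA but needs a partner to activate a gene. Its best known partners are YAP (YAP1) and TAZ (WWTR1), which the Hippo kinases hold outside the nucleus, while VGLL proteins can bind the same factors. In the gut, YAP and TAZ are known for their part in regeneration after injury. Well-known targets include CTGF and CYR61, which encode secreted proteins of the matrix.

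Depth was similar, from 16984496 to 18859715 reads per library on named genes. The knockdown libraries are numbered 1 and 2 as in the deposited columns, and the labels do not say whether they came from separate cultures or hairpins. P-values therefore measure only the spread between these libraries, which may be technical. Both knockdown libraries are set against the same single control, so anything particular to that control moves both ratios the same way. Of 15 markers of colon carcinoma cells 12 passed the level filter. HNF4A, a transcription factor of gut epithelium, stood at 2947, 3613 and 3835 normalized counts in the control and in knockdown libraries 1 and 2, the order used for all levels here, while CDX1 was listed at 0 in all 3. Of markers of other cell types, 7 of 12 for fibroblasts, 5 of 13 for leukocytes and 3 of 9 for endothelium passed the level filter. PTPRC and CD3E of leukocytes, PECAM1 and CDH5 of endothelium and POSTN of fibroblasts were listed at 0 in all 3 libraries. The summed levels were 9087, 9046 and 5893 for 12 fibroblast markers, 1063, 1006 and 644 for 13 leukocyte markers, and 166, 77.1 and 96.4 for 9 endothelial markers. S100A4, which cancer cells can also express, gave most of the fibroblast sum, at 7937, 8355 and 4925. Some other stromal genes split the knockdown libraries. COL1A2 stood at 43.9, 0 and 83.1, SPARC at 31.2, 0 and 54.3 and MMP2 at 25.4, 0 and 31.8. COL3A1 stood at 12.7, 0 and 16.4 and THY1 at 44.9, 6.92 and 36.9. These were thus at or near 0 in library 1 and present in the control and library 2. Others did not split in this way and were present in all 3 libraries. LUM stood at 715, 489 and 617, COL1A1 at 203, 117 and 103 and PDGFRB at 89.8, 58.3 and 63.6. The part of such cells in the results was not tested.

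TEAD4 stood at 1140.4 normalized counts in the control, 268 in knockdown library 1 and 234 in knockdown library 2. Both knockdown libraries thus held much less TEAD4 RNA than the control, 23.5% and 20.5% of it, and were close to each other. The log2 fold change was -2.18 ± 0.25 (SE), on the scale of log2(normalized count + 1) used for all fold changes. TEAD4 had the smallest limma p of all 14211 genes, and its limma adjusted p over them was 0.9998. DESeq2 gave TEAD4 an adjusted p of 5.83e-05, and the authors' deposited table one of 1.92e-05. In bulk RNA, fewer cells that express a gene and less of its RNA per cell cannot be told apart.

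The partners and relatives of TEAD4 did not all follow it. WWTR1 stood at 634, 361 and 211, lower in both knockdown libraries (log2 fold change -1.20 ± 0.39 SE). YAP1 stood at 8427, 9567 and 2969.6, above the control in library 1 and far below it in library 2. TEAD1 (8497, 8449 and 4490.3) and TEAD2 (417, 373 and 115.9) were near the control in library 1 and well below it in library 2. TEAD3 was about level in all 3, at 267, 241 and 245. VGLL4, a cofactor that counteracts YAP, stood at 1847, 1549 and 1033. Of the 10 genes of this list, TEAD4 included, 7 passed the level filter and 6 of them lay below the control in both knockdown libraries, as did 31% of all genes. Their median log2 ratio was -0.16 in library 1 and -1.50 in library 2, so the knockdown libraries differed in these genes although TEAD4 itself was alike in both.

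Known targets of YAP and TAZ showed no common direction. Of 30 such genes 24 passed the level filter, and 9 lay above and 6 below the control in both knockdown libraries, beside 33.1% and 31% of all genes. Their median log2 fold change was 0.01. CYR61 was at 63.5, 112 and 120.0 (0.86 ± 0.37 SE), above the control in both knockdown libraries. CTGF was at 84.9, 96.9 and 115 (0.31 ± 0.37 SE), a difference within its error. WTIP, a LIM protein of the Ajuba family, was the only target of the 24 at least 2-fold lower in both, as 1.25% of all genes were, at 50.8, 24.7 and 9.23 (-1.67 ± 0.81 SE). ANKRD1, a target often used as a reporter, had 1 read in all 3 libraries together. Among 20 Hippo kinases and scaffolds past the filter, 3 lay above and 8 below the control in both libraries and 0 differed 2-fold.

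Over all genes, 4697 (33.1%) lay above and 4406 (31%) below the control in both knockdown libraries, and 5108 (35.9%) did neither. At least 2-fold in both libraries was reached by 75 genes above the control (0.528%) and 178 below it (1.25%). Among genes averaging at least 50 normalized counts these were 21 and 75. Taken singly, library 1 had 134 genes at least 2-fold above (0.943%) and 550 below the control (3.87%), and library 2 had 507 above (3.57%) and 678 below (4.77%). The knockdown libraries also differed from each other by at least 2-fold for 1200 genes (8.44%), 750 higher (5.28%) and 450 lower (3.17%) in library 2. This touched the 2-fold genes: the pair differed 2-fold for 25 of the 75 higher genes, 24 of them further up in library 2, and for 33 of the 178 lower genes, 28 of them further down in library 2. Just inside the 2-fold limit lay RORA, at 72.3, 158 and 146, and just outside it CRB2, at 86.9, 32.6 and 43.1. The spread depended on level. The median difference between the knockdown libraries was 0.58 (log2) for genes with a mean from 10 to 50 and 0.15 for genes with a mean of 5000 or more.

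**Figure D1:**
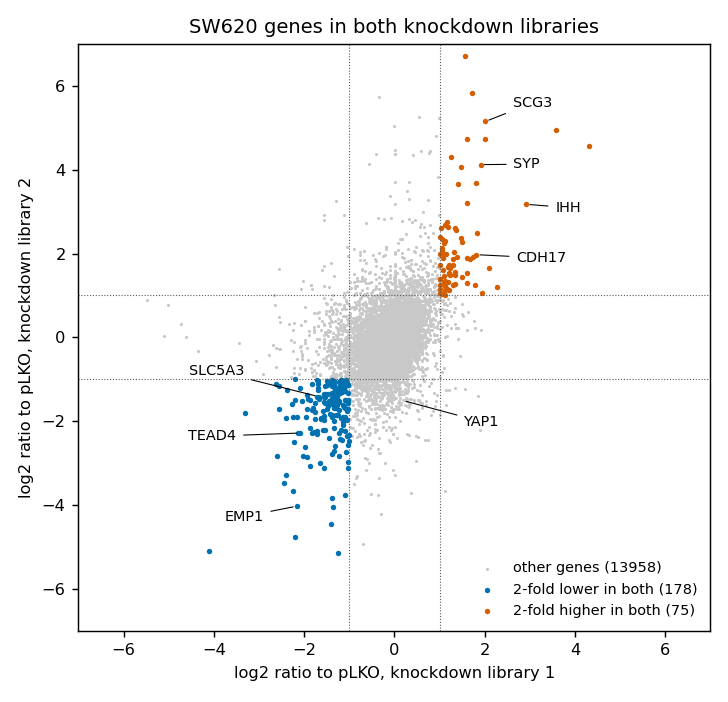
Log2 ratio to the pLKO control in knockdown library 1 (x axis) and knockdown library 2 (y axis), each point 1 of 14211 genes. Genes at least 2-fold lower (178) or higher (75) in both libraries are coloured, and both axes share the 1 control.

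No gene passed limma over all genes. Limma, with 1 residual degree of freedom, called 0 genes higher (0%) and 0 lower (0%) at an adjusted p under 0.05, and 343 genes had an unadjusted p under 0.05 (2.41%), 114 higher (0.802%) and 229 lower (1.61%). EdgeR's quasi-likelihood test called 0 genes (0%), with 360 at an unadjusted p under 0.05 (2.53%). DESeq2 called 3 genes, all lower (0.0211%), and the authors' deposited table called 3, all lower (0.0226% of 13300 with an adjusted p). Both sets of calls were TEAD4, SLC5A3 and EMP1. They rest on counts of the same 3 libraries, so the match is not independent evidence. All other genes are given below as levels and ratios in 3 libraries, with no call from any of these tests.

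EMP1, SLC5A3, CRIP1 and DHRS3 stood out among the lower genes. EMP1, a membrane protein of the PMP22 family, was at 650.3, 144 and 39.0 (-3.10 ± 0.79 SE). Library 2 was the lower of the pair by a wide margin, and EMP1 had an adjusted p of 0.0289 in DESeq2 and 0.00648 in the authors' deposited table. CRIP1, a small protein built around a LIM domain, stood at 179, 37.6 and 30.8 (-2.36 ± 0.44 SE), with the knockdown libraries close together. DHRS3, which reduces retinaldehyde to retinol and so limits retinoic acid, stood at 216, 38.5 and 18.5 (-2.97 ± 0.60 SE). CRIP1 and DHRS3 missed the threshold in DESeq2, with adjusted p of 0.524 and 0.123. Of 28 LIM genes past the filter, CRIP1 included, 12 lay below and 4 above the control in both libraries, beside 31% and 33.1% of all genes. The median log2 fold change of the LIM genes was -0.11, and their median ratio was 0.08 in library 1 and -0.29 in library 2. PDLIM3, a LIM protein of actin fibres, stood at 195, 102 and 67.7 (-1.22 ± 0.41 SE).

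**Figure D2:**
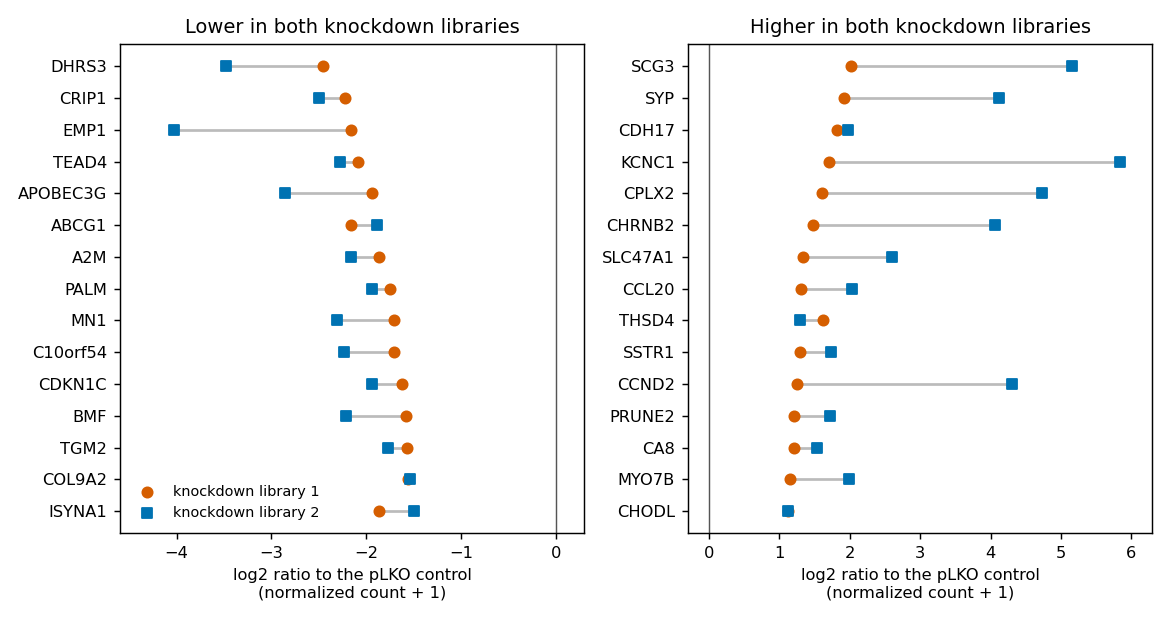
Log2 ratio to the control in each knockdown library for the 15 lower and the 15 higher genes with the largest ratio in the library where it was smaller, among genes averaging at least 50 normalized counts. The libraries lie close together for CRIP1 and TEAD4 and far apart for SCG3, KCNC1 and CPLX2.

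SLC5A3, the sodium-coupled transporter that brings myo-inositol into cells, was called as well. Its levels were 12907, 4033 and 4844 (-1.55 ± 0.18 SE), with both knockdown libraries far below the control and an adjusted p of 0.000124 in DESeq2 and 0.000281 in the authors' deposited table. The gene overlaps MRPS6, a mitochondrial ribosomal protein, which stood at 2066, 982 and 1329, and reads from the stretch they share cannot be told apart. ISYNA1, which makes inositol phosphate from glucose phosphate, stood at 251, 68.2 and 88.2 (-1.68 ± 0.37 SE). It overlaps SSBP4, which was about level at 773, 756 and 719.8. NFAT5, the transcription factor of the response to salt stress, stood at 7622, 6693 and 5291. The list of 11 genes of inositol and osmolyte handling was chosen after its values were seen, so no count is given over it. Other members such as IMPA2, at 991, 805 and 1005, did not share the direction.

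Retinoid genes lay mostly below the control. Of 32 genes 21 passed the filter, DHRS3 included. Of the 21, 14 were lower and 4 higher in both knockdown libraries, beside 31% and 33.1% of all genes. Among the 14, 3 were 2-fold lower in both, beside 1.25% of all genes, and DHRS3, known beforehand to be lower, was among these 3. The median log2 fold change of the list was small, -0.17 beside 0.00 for all genes. RDH10, which oxidises retinol to retinaldehyde, stood at 1402, 425 and 687 (-1.37 ± 0.34 SE), with library 1 the lower of the pair.

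Several genes of cholesterol export lay below the control, while genes of cholesterol synthesis lay on both sides of it. ABCG1 and ABCA1, transporters that pass cholesterol out of the cell, stood at 105, 22.7 and 27.7 (-2.03 ± 0.51 SE) and at 104, 32.6 and 12.3 (-2.32 ± 0.74 SE). LRP1, a large lipoprotein receptor, stood at 1382, 552 and 586 (-1.28 ± 0.21 SE). APOE, which carries lipid between cells, stood at 388, 147 and 143 (-1.41 ± 0.29 SE). These belong to a list of 16 efflux genes and targets of the oxysterol receptor LXR. It was chosen after its values were seen, so no count is given over it. Other members such as MYLIP, at 190.4, 169 and 198, did not share the direction. In cholesterol synthesis 12 of 25 genes lay above and 6 below the control in both libraries (median 0.11), beside 33.1% and 31% of all genes.

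Some matrix and cytoskeleton genes lay below the control as well. TGM2, an enzyme that crosslinks proteins, stood at 613, 206 and 179 (-1.67 ± 0.27 SE). COL9A2 and COL9A3, chains of a collagen of cartilage, stood at 144.5, 48.4 and 49.2 and at 1955, 853 and 832, each with the knockdown libraries close together. COL2A1, the main collagen of cartilage, stood at 432, 211 and 152. The transcription factor SOX9, which acts in cartilage and gut, stood at 3779, 3435 and 2791. COL9A2, COL9A3, COL2A1 and SOX9 belong to a list of 18 genes of cartilage-type matrix. It was chosen after its values were seen, so no count is given over it. Its members MATN2, at 16.6, 21.7 and 46.1, and COL11A1, at 22.5, 16.8 and 44.1, did not share the direction. Of 23 mesenchymal genes past the filter 11 lay below and 2 above the control in both libraries (median -0.57), beside 31% and 33.1% of all genes. COL1A2, SPARC, MMP2 and THY1, with their very low values in library 1, were among the 23. An exception was SNAI2, a repressor of epithelial genes, at 91.8, 193 and 169 (0.97 ± 0.33 SE). Integrins, laminins and focal adhesion genes had 13 of 30 below and 6 above, beside 31% and 33.1% of all genes. Their median log2 ratio was 0.04 in library 1 and -0.50 in library 2. Among them were ITGA3, a laminin receptor subunit, at 544, 275 and 307 (-0.90 ± 0.25 SE), and the myosin light chain MYL9 at 315, 148 and 84.1. Fibroblast markers, 7 of 12 past the filter, had 4 lower and 0 higher in both libraries, beside 31% and 33.1% of all genes. Several of them, such as COL1A1 and THY1, are also in the mesenchymal list, so the counts overlap.

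Other lower genes included A2M, a protease inhibitor of plasma, at 247, 67.2 and 54.3 (-2.01 ± 0.38 SE), PALM, a membrane-linked protein of cell shape, at 176, 51.4 and 45.1, and MN1, a transcriptional coregulator, at 105, 31.6 and 20.5. CDKN1C, an inhibitor of cyclin-dependent kinases, stood at 216, 69.2 and 55.4 (-1.78 ± 0.39 SE). BMF and BBC3, which promote apoptosis through BCL2 proteins, stood at 108, 35.6 and 22.6 and at 61.5, 16.8 and 18.5, and were the 2 apoptosis regulators, of 24 past the filter, that were 2-fold lower in both libraries, beside 1.25% of all genes. Of the 24, 10 lay below and 2 above the control in both (median -0.11), beside 31% and 33.1% of all genes. APOBEC3G, a cytidine deaminase that restricts retroviruses, stood at 184.5, 47.4 and 24.6 (-2.40 ± 0.56 SE). All 5 APOBEC3 genes past the filter were lower in both libraries, beside 31% of all genes. The family was chosen after its values were seen, so the count is a description only. Reads of such similar genes could be split between them in ways that are not known. Immediate early genes were lower more often than not, with 19 of 29 below and 2 above the control in both libraries. Their median was -0.39, and 31% and 33.1% of all genes lay below and above. EGR1, a transcription factor induced by growth factors, stood at 1434, 685 and 789.6 (-0.96 ± 0.21 SE), and EGR2 at 58.6, 15.8 and 11.3.

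Among the higher genes, a first group came from a list of brush border and enterocyte surface genes. The brush border is the layer of microvilli on gut epithelium, and not all of the list belongs to it. CDH17, a cadherin of intestinal epithelium, stood at 51.7, 185 and 206, with the knockdown libraries close together (1.90 ± 0.34 SE). MYO7B and ANKS4B, which join the adhesion complex between microvilli, stood at 49.8, 112 and 200.0 and at 173, 322 and 419. The third part of that complex, USH1C, was higher by less, at 2902, 3742 and 3515. Other genes of this kind, chosen after their values were seen, include some with very few counts in the control, such as FUT2, a fucosyltransferase, at 6.83, 26.7 and 43.1. Such genes passed the level filter through the libraries where they were high, so no count is given over them. VIL1, the actin bundler of microvilli, did not share the direction, at 5163, 6069.9 and 4869.7. Nor did EPS8, at 3188, 3120 and 2023, or MYO1D, at 1489, 1341 and 1326, of the same list. EPS8L3, PDZK1 and SLC9A3R1 lay on both sides of the control, at 2169, 1662 and 2375, at 452, 518 and 309, and at 2216, 2165 and 2446. CDHR2 and CDHR5 were higher by little, at 532, 714 and 586 and at 47.8, 66.2 and 53.3. A broader list of intestinal differentiation had 18 of 42 genes past the filter. Of these, 4 were higher and 6 lower in both libraries, beside 33.1% and 31% of all genes. The lower members included KRT20, a keratin of mature enterocytes, at 19.5, 7.91 and 7.18, and PLA2G2A, a secreted phospholipase, at 33.2, 0.988 and 0. Both passed the filter through the control alone, so the filter set their direction and the count is a description only.

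A second group encodes neuroendocrine and synaptic vesicle proteins, and for some of them library 2 stood far above library 1. SYP, a membrane protein of synaptic vesicles, stood at 102.5 in the control, 389 in library 1 and 1802 in library 2 (3.02 ± 0.89 SE). SCG3, a granin of secretory granules, stood at 23.4, 97.85 and 867.5 (3.58 ± 1.27 SE). CPLX2, a complexin that regulates vesicle fusion, stood at 92.75, 285 and 2485 (3.17 ± 1.24 SE). In all 3 the order was control, library 1, library 2, and the step between the knockdown libraries was larger, on the log2 scale, than that between the control and library 1. Some further genes of this kind, chosen after their values were seen, were near 0 in the control and library 1 and passed the level filter through library 2 alone, so no count is given over them. SNAP25, a protein of the fusion machinery, stood at 0, 0.988 and 36.9. CHGA, the granin most used as a neuroendocrine marker, stood at 2.93, 1.98 and 80.0, above the control in library 2 and not in library 1. SYT1, a calcium sensor of vesicle release, went the other way, at 3309.9, 2499.7 and 1457. So did ENO2, at 850, 841 and 596, SYT11, at 734, 568 and 420, and CPE, at 507, 382 and 400. RAB3B was lower too, at 24.4, 12.8 and 15.4, and SCG2 lay on both sides of the control, at 241, 312 and 202.

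**Figure D3:**
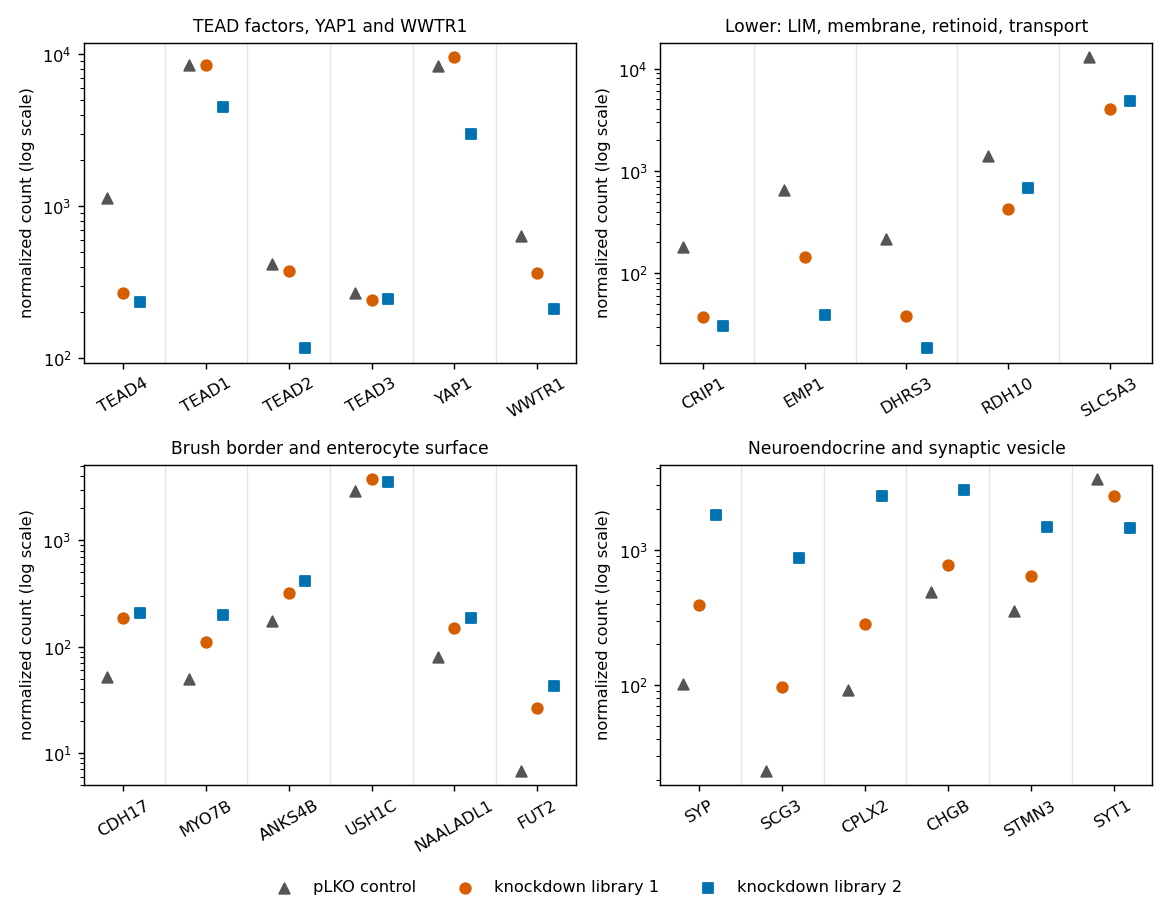
Normalized counts on a log axis in the control (triangle), knockdown library 1 (circle) and knockdown library 2 (square) for 4 groups of genes. TEAD4 and CDH17 have like values in both knockdown libraries, while YAP1, SCG3 and CPLX2 do not.

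The rest of the 15 higher genes were of mixed kinds. SSTR1, a somatostatin receptor that was also in the neuroendocrine list, stood at 88.8, 218 and 297 (1.51 ± 0.34 SE). CCL20, a chemokine made by epithelium, stood at 29.3, 74.1 and 123 (1.67 ± 0.50 SE). Of 16 NF-kB and inflammatory genes past the filter 4 were higher and 5 lower in both libraries, beside 33.1% and 31% of all genes. SLC47A1, an exporter of organic cations, stood at 16.6, 43.5 and 106. The carbonic anhydrase relative CA8 stood at 42.0, 98.8 and 124. CCND2, a cyclin of the G1 phase, stood at 9.76, 24.7 and 212, and, from the neuroendocrine list, the channel subunit KCNC1 stood at 2.93, 11.9 and 223.5, and the acetylcholine receptor subunit CHRNB2 at 10.7, 31.6 and 196. For these last 3 the larger step lay between the knockdown libraries, and their errors were over 1 on the log2 scale. THSD4, PRUNE2 and CHODL complete the 15, with log2 fold changes of 1.46, 1.47 and 1.12.

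Promoter windows are shown for 5 of these genes, 3 that stood lower (DHRS3, EMP1, CRIP1) and 2 that stood higher (SCG3, SYP), since TEAD factors are known to bind the letters GGAATG. The windows run from 250 bases before to 50 after the start of transcription, 5′ to 3′ on the strand of the gene, in RefSeq's GRCh38.p14. Capitals mark GGAATG on either strand (CATTCC on the other).
DHRS3, chr1:12616740-12617039, minus strand: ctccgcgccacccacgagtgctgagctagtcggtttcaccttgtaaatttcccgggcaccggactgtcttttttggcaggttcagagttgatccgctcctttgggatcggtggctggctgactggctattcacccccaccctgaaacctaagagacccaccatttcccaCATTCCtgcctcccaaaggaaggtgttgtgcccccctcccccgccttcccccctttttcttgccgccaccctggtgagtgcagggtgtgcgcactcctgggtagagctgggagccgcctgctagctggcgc
EMP1, chr12:13196476-13196775, plus strand: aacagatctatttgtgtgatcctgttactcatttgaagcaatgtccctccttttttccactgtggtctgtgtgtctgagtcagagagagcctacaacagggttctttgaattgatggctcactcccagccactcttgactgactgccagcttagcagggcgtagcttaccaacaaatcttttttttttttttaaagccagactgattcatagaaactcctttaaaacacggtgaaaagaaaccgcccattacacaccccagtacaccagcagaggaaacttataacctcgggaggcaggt
CRIP1, chr14:105486636-105486935, plus strand: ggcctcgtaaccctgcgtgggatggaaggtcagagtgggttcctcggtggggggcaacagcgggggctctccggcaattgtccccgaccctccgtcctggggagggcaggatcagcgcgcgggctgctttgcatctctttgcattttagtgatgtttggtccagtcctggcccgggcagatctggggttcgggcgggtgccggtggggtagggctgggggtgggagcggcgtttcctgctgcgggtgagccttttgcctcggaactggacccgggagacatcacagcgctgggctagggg
SCG3, chr15:51681253-51681552, plus strand: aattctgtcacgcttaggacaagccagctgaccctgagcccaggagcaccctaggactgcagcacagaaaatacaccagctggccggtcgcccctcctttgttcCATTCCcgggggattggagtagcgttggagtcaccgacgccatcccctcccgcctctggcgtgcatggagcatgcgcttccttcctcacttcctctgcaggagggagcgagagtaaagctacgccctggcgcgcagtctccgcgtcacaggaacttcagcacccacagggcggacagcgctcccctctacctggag
SYP, chrX:49200144-49200443, minus strand: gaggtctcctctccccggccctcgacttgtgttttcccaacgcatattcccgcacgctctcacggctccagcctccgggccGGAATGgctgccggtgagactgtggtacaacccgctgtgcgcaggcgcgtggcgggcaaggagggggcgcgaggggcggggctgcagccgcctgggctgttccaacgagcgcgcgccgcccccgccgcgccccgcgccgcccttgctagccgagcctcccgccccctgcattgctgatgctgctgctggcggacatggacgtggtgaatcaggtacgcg
DHRS3 has 3 windows, of which the first holds no match, the one shown holds a match at offset -81 (81 bases before the start) and the last holds one at -13. The SCG3 window holds one at -146 and the SYP window one at -169, while those of EMP1 and CRIP1 hold none. Among the 15 lower genes, the 15 higher genes and SLC5A3, 18 had windows that were examined, and 7 of these held a match. The 7 were DHRS3 on the lower side and CCL20, KCNC1, MYO7B, SCG3, SYP and THSD4 on the higher side. The motif was in 17.6% of 165 windows of the 2-fold lower genes and in 19.4% of 62 windows of the 2-fold higher genes, beside 11.7% of 15019 windows of the genes past the level filter and 14.0% of all 35116 windows. Windows were matched for 107 of the 178 lower and 46 of the 75 higher genes. A match is a run of letters and not a measured site.

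Ribosomal protein, oxidative phosphorylation, DNA replication and mitosis genes differed from the control by small amounts, while some other lists differed by more. The counts here stand beside 33.1% of all genes above and 31% below the control in both libraries. Hypoxia and glycolysis genes, with 34.5% on either side, were near these shares. Of 30 ribosomal protein genes 27 lay above and 0 below the control in both libraries, the median log2 fold change being 0.20, and of 31 oxidative phosphorylation genes 26 lay above and 1 below, with a median of 0.14. DNA replication genes had 21 of 30 above and 3 below (median 0.22), for example GINS3, a subunit of the replicative helicase, at 481, 704 and 770.1. Genes of G2 and mitosis showed no such lean, with 9 of 30 above and 8 below (median 0.01). ATF4 and unfolded protein response genes had 18 of 26 above and 3 below, among them SLC3A2, an amino acid transporter subunit, at 4775, 7262 and 7252 (0.60 ± 0.15 SE). Of 25 p53 targets 6 lay above and 8 below, and of 23 interferon-stimulated genes 5 and 11. Histone genes had 4 of 15 above and 8 below (median -0.32), and their summed level was 49362, 48799.7 and 40612. Epithelial junction and keratin genes had 7 of 29 above and 5 below, hypoxia and glycolysis genes 10 of 29 on either side, and Wnt targets 5 of 24 above and 10 below. For matrix proteases and their inhibitors the numbers were 3 and 10 of 24, with a median log2 ratio of -0.11 in library 1 and -0.49 in library 2. The EGF receptor family, MET and their ligands had 3 and 8 of 15, with median ratios of -0.07 and -0.63. The PMP22-like and related membrane proteins around EMP1, EMP1 included, had 3 and 5 of 11. Leukocyte markers had 0 of 5 above and 3 below (median -0.42). Of 9 endothelial markers 3 passed the filter, TIE1 (24.4, 5.93 and 2.05) through the control alone, so no count is given over them. None of these lists had a member past the limma threshold.

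**Figure D4:**
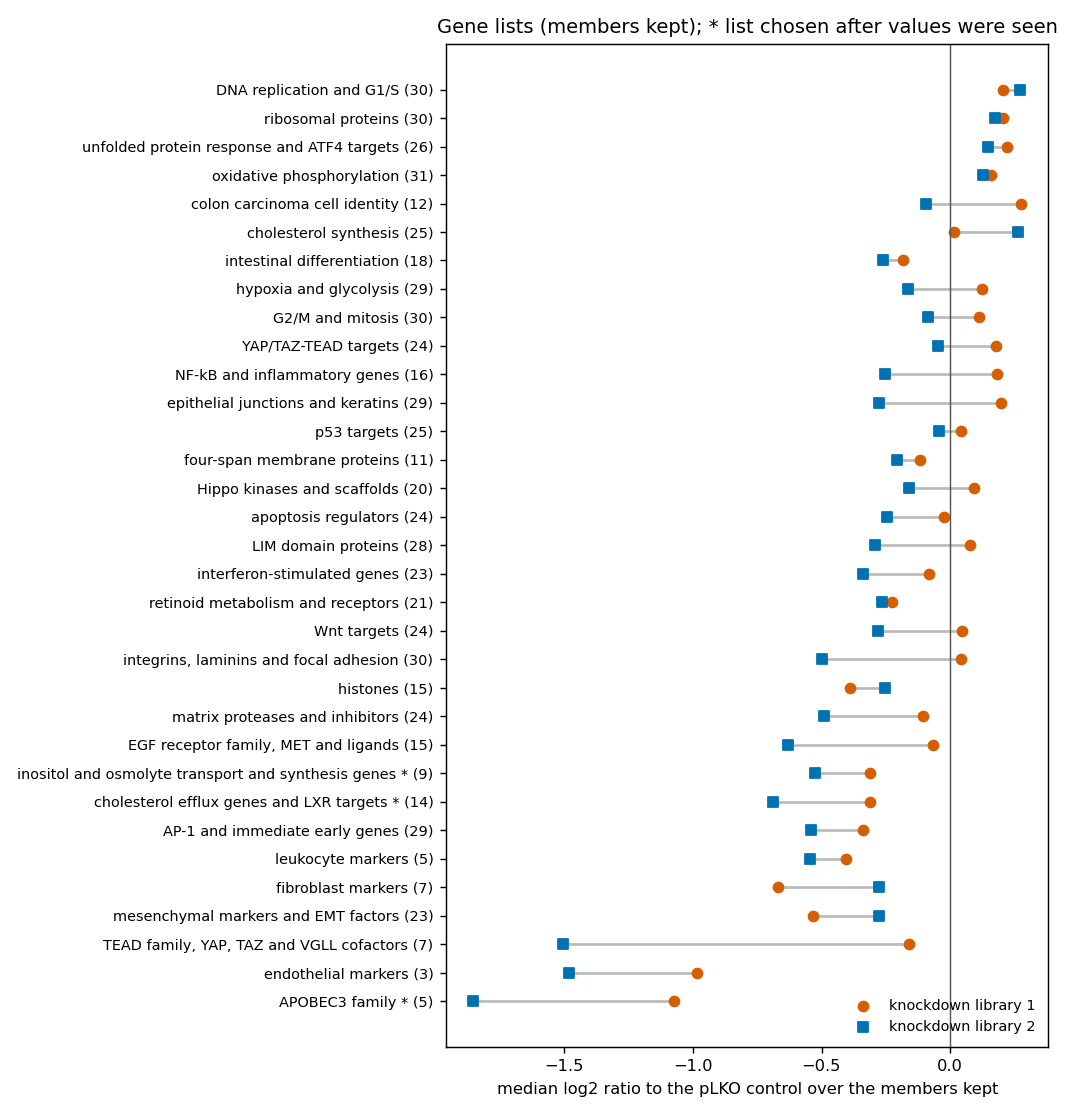
Median log2 ratio to the control in knockdown library 1 and knockdown library 2 for the gene lists named on the y axis, over the members past the level filter (their number in brackets). The TEAD list has -0.16 in library 1 and -1.50 in library 2, while ribosomal proteins have 0.20 and 0.18.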

How the data were processed

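RNA of whole SW620 cultures was extracted with Trizol and made into TruSeq RNA libraries, per the labels' protocols. This kit keeps no strand, so antisense and overlapping genes share reads. The submitters' processing notes name Bowtie 0.12.2 and the build hg18. The gene counter is not given in the sources used here.

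The authors deposited normalized counts, a signal per gene and library made by dividing reads by a size factor (1.02, 1.01 and 0.975). Multiplying back gave whole reads for 100% of values within 1e-06. Per the file headers, the deposited table also holds the authors' log2 fold changes with standard errors, a test score, and p-values, raw and adjusted.

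Of 26364 rows, 28 with date-like names were left out (0.232% to 0.262% of reads). Limma 3.58.1 (R 4.3.3, eBayes with trend) was fitted to log2(normalized count + 1) over the 3 libraries, two-sided, with Benjamini-Hochberg adjustment over 14211 genes. The lone control is assumed to vary like the knockdown pair. The pseudocount understates changes of low genes. The median SE was 0.26. EdgeR 4.0.16 and DESeq2 1.42.0 on the recovered reads were alternatives. The fits were tested on simulated data. A gene can pass the level filter through 1 library alone, so counts over list members past it are descriptions. The knockdown libraries were not duplicates (chi-square per degree of freedom 30.9). H3F3A, a histone gene that cells use widely, is listed at 0 in all 3 libraries, so a listed 0 need not mean no RNA.

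Named genes are TEAD4, CRIP1, EMP1 and DHRS3, the 15 higher and 15 lower genes with a mean of at least 50 and the largest ratio in the library where it was smaller, the genes called in the authors' table, the TEAD list, and up to 4 members per list. Members of lists chosen after their values were seen, and EGR1, CTGF, MRPS6 and SSBP4, are named besides. C10orf54, in the 15 lower, is counted and not described. All members and lists were chosen with earlier results of these data known. Symbols matched RefSeq for 95.8% of genes, and promoter windows are RefSeq's. HCT116 libraries were not analysed here, and some genes that the rule names are not reported here.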

Additional observations from a re-analysis of the deposited data

How the results depend on the processing

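No paired analysis was possible because there is 1 control library and the groups share fewer than 2 replicate numbers. The counts of genes 2-fold from the control in both knockdown libraries, 75 higher and 178 lower, depended on the filter: 400 and 383 with a mean of at least 1, 400 and 550 with no filter, and 21 and 75 with a mean of at least 50. A pseudocount of 5 gave 40 higher genes. Asking for 2-fold in the mean of the knockdown libraries gave 201 higher and 427 lower. With either knockdown library left out, a value with no test, the counts were 134 to 507 higher and 550 to 678 lower, and those on the same side of the control, 4697 and 4406, became 7112 to 7390 and 6820 to 7099. Leaving out the control leaves no comparison.

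DESeq2 called 3 lower genes where limma and edgeR called 0. RAB3A, at -0.24 in limma, was 0.025 in edgeR and 0.032 in DESeq2. TEAD4, SLC5A3 and EMP1 passed in DESeq2 alone, and of 2429 values of 225 genes under the other pseudocounts, filters, scalings and tools, 2424 kept their direction and side of the threshold. With a knockdown library left out the sign changed for 9 genes (without library 1) and 7 genes (without library 2, YAP1 among them). The median log2 fold change of a list moved by at most 1 SD of the knockdown libraries in 164 cases and by more in 21. Without knockdown library 2 the median changed sign for 8 of 37 lists, among them integrins and focal adhesion (-0.24 to 0.04), LIM proteins (-0.11 to 0.08), Wnt targets (-0.19 to 0.05) and Hippo kinases (-0.09 to 0.09), and without library 1 for 5. With no filter the smallest limma adjusted p was 0.630. Other scalings moved the median log2 fold change of all genes by less than 0.1. With 3 libraries and 1 control, the number of libraries limits every result, and depth limits low genes: those averaging 10 to 50 normalized counts differed by a median of 0.58 (log2) between the knockdown libraries.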

Other observations

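Some further genes had similar levels in both knockdown libraries, and were chosen after their values were seen. EEF1A2, a translation elongation factor of muscle and nerve, was at 5589 normalized counts in the control, 2425 in knockdown library 1 and 2518 in knockdown library 2 (log2 fold change -1.18 ± 0.16 SE). TUBB6, a beta-tubulin, stood at 723, 257 and 221 (-1.60 ± 0.26 SE), CKB, the brain-type creatine kinase, at 1427, 578 and 493, and ATP9A, a lipid flippase of endosomes, at 1825, 763 and 712. On the higher side IHH, the hedgehog ligand of gut epithelium, stood at 6.83, 58.3 and 69.7. Its ratio of reads was 9.35, with a 95% interval from 4.41 to 23.7 that covers counting error only.

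A few low genes are given as values only, chosen after they were seen and without the rest of their families. The secreted phospholipases PLA2G2A, PLA2G2E and PLA2G2F stood at 33.2, 0.988 and 0, at 27.3, 7.91 and 9.23, and at 42.0, 7.91 and 13.3. For PLA2G2A the reads were 34, 1 and 0. The cytokines IL10 and IL19 stood at 83.0, 27.7 and 20.5 and at 20.5, 6.92 and 3.08. The homeobox gene CDX2, by contrast, stood at 271, 416 and 91.3, above the control in library 1 and below it in library 2.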
